A study of Mus musculus with 45 samples.

Results

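The comparison described here is that of mouse embryonic stem cells depleted of NANOG for 24 h with the same cells left untreated (NT), measured by ATACseq, which counts the DNA fragments released where the transposase Tn5 finds open chromatin. Its members are the libraries whose sample titles name the NANOG-FKBP line at 24 h (3 libraries) and at NT (2 libraries), 5 of the 45 samples in the series. The cells are of the mouse embryonic stem cell line E14, grown without serum and with LIF, a MEK inhibitor and a GSK3 inhibitor, a medium that holds them in the naive state. In the NANOG-FKBP line both copies of Nanog carry an FKBP tag, and 500 nM dTAG-13 directs the tagged protein to the proteasome. Such lines were grown from single edited clones that responded to dTAG-13, and the sources used here do not say how many NANOG-FKBP clones were measured. NT cells are of the same tagged line and received DMSO, so every library compared here carries the tag. The wider study applied the same treatment to lines with tagged SOX2 or OCT4, and those lines serve here only for comparison. Per the study's methods, the SOX2 line was also made in E14 cells, for which the name IB10 is given, and it was edited separately. The OCT4 line was provided by another laboratory and comes from a different parental mouse embryonic stem cell line. Differences from the OCT4 line therefore cannot be told apart from differences between the parental lines. Likewise, differences from the SOX2 line cannot be told apart from differences between separately edited lines. The sample labels do not say whether the replicates came from separate cultures. The p-values therefore measure a spread between libraries that may be technical, and that spread was estimated jointly over 27 libraries of the 3 tagged lines. The study's methods speak of duplicates for NANOG, while the labels give 3 treated libraries, and the counts and descriptions of the called peaks are given with and without treated replicate 2. Through the alternatives, 54 called peaks were followed: those given with values below, except near Gadd45g, and others near Fam135b and Smad7. All were also called without treated replicate 2, with log2 fold changes that moved by at most 0.3. For those named by size or p this call was a condition of being named, so it does not test them. Called peaks near Elf5, Etv4 and Cdh2, which lost their call without it, are not among the 54. The files used here hold no readout of NANOG protein, so the depletion itself was not checked.

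NANOG is a homeodomain transcription factor of the pluripotency network. It shares many of its binding sites with OCT4 and SOX2, is needed for the epiblast to form in the early embryo, and restrains genes of the primitive endoderm such as Gata6. Unlike OCT4 and SOX2, which can bind nucleosomal DNA and open it, NANOG is not usually counted among the pioneer factors.

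A peak was called lost when its counts were lower at 24 h than in NT, and gained when they were higher, at an adjusted p under 0.05 in edgeR's quasi-likelihood test. Of 166430 peaks tested, 3745 were lost (2.25% of those tested) and 479 were gained (0.288%). Losses made up 88.7% of the calls. Without treated replicate 2 the counts were 3536 lost (2.12%) and 432 gained (0.26%), and 86.7% of the lost peaks and 71.4% of the gained peaks remained called. Other omissions moved the counts more: 1461 were lost without NT replicate 1, 2056 without treated replicate 3 and 2268 without treated replicate 1, and 156 were gained without NT replicate 2. With the replicate number as a block 6097 were lost and 1949 gained. The largest losses lay near Ephb1, Bach2, Itpka and Fat2, and the largest gains near Inpp5d and Brinp3. Their sequences are shown first, because they are the sites at which accessibility moved most. Each is the 200 bp around the peak summit, on the plus strand of mm10, read from the RefSeq copy of that assembly (GRCm38). Capitals mark every match to one of the 15 motif families searched. The first 4 were lost and the last 2 were gained.

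In these 6 windows the short homeodomain core CCATTA, which NANOG is known to bind, occurred in the Ephb1 and Bach2 windows. The Bach2 window also held an AP-1 site (TGACTCA), the Itpka window a POU octamer (ATGTAAAT, on the minus strand) and the Fat2 window a KLF site (GGGTGTGG). Both gained windows held a SOX site on the minus strand. The Itpka and Fat2 windows also held a ZIC site (CAGCAGG), as did the Brinp3 window on the minus strand. In the Inpp5d window there were also an OTX site (GGATTA, on the minus strand) and a TFAP2 palindrome (GCCCCAGGC). A match describes the letters and does not show that a factor was bound.
Ephb1 chr9:102400871-102401070: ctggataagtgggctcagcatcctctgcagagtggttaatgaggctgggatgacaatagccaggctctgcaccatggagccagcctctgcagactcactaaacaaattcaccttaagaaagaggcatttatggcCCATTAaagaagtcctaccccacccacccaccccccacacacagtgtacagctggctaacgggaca
Bach2 chr4:32241361-32241560: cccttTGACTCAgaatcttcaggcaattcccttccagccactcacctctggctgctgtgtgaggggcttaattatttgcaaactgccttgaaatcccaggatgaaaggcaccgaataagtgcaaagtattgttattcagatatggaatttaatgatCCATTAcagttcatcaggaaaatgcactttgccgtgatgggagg
Itpka chr2:119730825-119731024: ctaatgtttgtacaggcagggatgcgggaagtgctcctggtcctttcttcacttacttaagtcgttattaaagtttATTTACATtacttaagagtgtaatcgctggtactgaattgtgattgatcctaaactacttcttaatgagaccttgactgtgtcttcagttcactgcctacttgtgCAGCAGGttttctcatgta
Fat2 chr11:55323933-55324132: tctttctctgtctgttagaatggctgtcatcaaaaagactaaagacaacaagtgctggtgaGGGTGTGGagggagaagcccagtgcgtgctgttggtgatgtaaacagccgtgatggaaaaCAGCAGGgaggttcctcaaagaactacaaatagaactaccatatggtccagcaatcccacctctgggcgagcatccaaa
Inpp5d chr1:87687133-87687332: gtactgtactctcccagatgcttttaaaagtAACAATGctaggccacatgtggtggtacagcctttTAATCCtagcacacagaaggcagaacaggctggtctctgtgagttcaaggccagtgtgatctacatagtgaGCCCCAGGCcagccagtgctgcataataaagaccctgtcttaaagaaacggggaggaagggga
Brinp3 chr1:147125617-147125816: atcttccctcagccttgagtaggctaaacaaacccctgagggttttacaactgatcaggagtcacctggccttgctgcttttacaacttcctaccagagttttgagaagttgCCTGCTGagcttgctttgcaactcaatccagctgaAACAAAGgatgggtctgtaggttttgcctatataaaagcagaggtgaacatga

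Depth differed between the libraries. NT replicates 1 and 2 held 7102925 and 6035633 counts in peaks. The 24 h libraries held 11731743, 2767190 and 7836308, so replicate 2 was the shallowest of the 5. It also stood apart in the share of its counts on the mitochondrial genome, which was 17.0% against 2.72% to 3.83% in the other 4, and in its scaling factor of 0.804. Values below are normalized counts, that is, counts divided by the effective library size and brought to the median library. No pair of replicates agreed within sampling noise, with chi-square values per degree of freedom from 1.949 to 7.428, so none was counted as a duplicate. As a check of the cell type, 9 of 10 embryonic stem cell markers had a tested peak at their start, with means of 119 to 466 normalized counts in NT. Of 8 fibroblast markers 4 had such a peak (6.79 to 140), and Col1a1, Col3a1, Prrx1 and Lum had none. Summed over each library, the stem cell markers lay at 2570 and 2462 in NT and at 2583, 3301 and 2629 at 24 h, and the fibroblast markers at 241 and 310 and at 261, 234 and 285. Markers of the primitive endoderm (5 of 6 with a start peak, sums of 1009 and 1427 in NT and 1302, 1099 and 1314 at 24 h) and of trophoblast (6 of 6, sums of 559 and 874, and 722, 706 and 830) overlapped between the groups as well. Of the 24 start peaks, 0 were called in either direction at 24 h by edgeR's quasi-likelihood test or by DESeq2, with 0 lower and 1 higher at an unadjusted p under 0.05. Promoters are open in many cell types that do not use the gene, so these sums bear on cell type only weakly.

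The lost peaks fell by a median of 1.57 on the log2 scale, with the middle of the distribution between -2.0 and -1.23. Their median level went from 76.6 normalized counts in NT to 24.5 at 24 h, while that of all peaks tested was 26.8 and 25.8. A log2 fold change of -1 or lower was found at 3416 of them and of -2 or lower at 944. The gained peaks had a median log2 fold change of 1.39, from 24.6 to 65.8 normalized counts, with 410 at 1 or higher and 73 at 2 or higher. All peaks tested had a median of 0.03. In 3693 of the lost peaks all 3 treated libraries lay below both NT libraries, an order found at 13.3% of all peaks tested, and in 458 of the gained peaks they lay above both, an order found at 11.2%. Since these peaks were called on the same libraries, that separation describes the calls and does not test them. In bulk samples, a site open in fewer cells and a site less open in every cell cannot be told apart.

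Losses lay mostly at distal sites. In all, 141 lost peaks (3.77%) lay within 500 bp of an annotated transcript start, against 14.1% of all peaks tested, and 17 gained peaks (3.55%) did so. Without treated replicate 2 the shares at starts were 3.68% and 3.47%. Introns held 51.3% of the lost peaks and intergenic sequence 43.1%. Of the gained peaks, 41.8% were intronic and 52.0% intergenic. The median distance to the nearest protein-coding start was 31.1 kb for lost peaks, 38.0 kb for gained peaks and 19.1 kb for all, and 30.6 and 40.7 kb for the peaks lost and gained without treated replicate 2. Lost peaks were spread over many genes: 2724 protein-coding genes were nearest to at least 1 of them, 2053 of these to a single one and 209 to 3 or more. Gained peaks were nearest to 440 genes, and 136 genes had both. A nearest gene names the position of a peak, and says nothing of which gene the site acts on.

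The largest loss lay in intergenic sequence 46 kb upstream of Ephb1, an ephrin receptor. It held 113 and 53.1 normalized counts in the NT libraries and 2.52, 4.68 and 2.66 at 24 h. All treated libraries were close to empty, and the groups did not overlap. The log2 fold change was -4.85 (standard error 0.68, edgeR adjusted p = 9.53e-06) and -4.96 without treated replicate 2. The Bach2 peak (chr4:32241195-32241843) lies in an intron of that gene, which encodes a repressor known from lymphocytes. It went from 165 and 242 normalized counts to 5.87, 9.35 and 9.33, a log2 fold change of -4.73 (standard error 0.35, edgeR adjusted p = 2.37e-11). The treated libraries sat far below both NT libraries and near each other. An intron of Rtf1, a subunit of the Paf1 complex, held the peak nearest to Itpka (chr2:119730661-119731424), with 232 and 134 normalized counts in NT and 7.55, 4.68 and 9.33 at 24 h (log2 fold change -4.52). In Fat2, which encodes an atypical cadherin, an intronic peak (chr11:55323751-55324357) went from 315 and 170 to 18.4, 9.35 and 5.33 (log2 fold change -4.26, edgeR adjusted p = 3.98e-07). The spread between the NT libraries was wide at Itpka and Fat2, and smaller than the distance to the treated libraries.

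**Figure D1:**
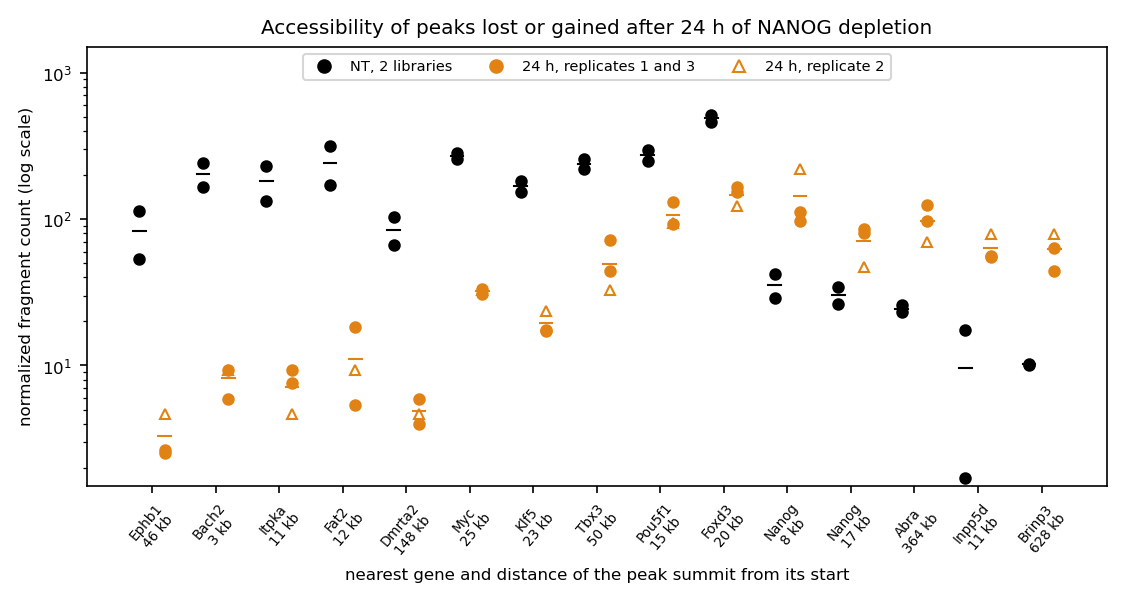
Normalized counts (log axis) of 15 named peaks in the 2 NT libraries (black) and the 3 libraries at 24 h (orange, replicate 2 as an open triangle), with short lines at the group means. At every peak drawn the orange points lie wholly below or wholly above the black ones, and the open triangle lies with the other treated libraries at the losses from Ephb1 to Myc.

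Further losses named by size or by p lay near Ccnd2, Mycn, Myc and Crygs. The peak 98 kb upstream of Ccnd2, the cyclin D2 gene, held 110 and 156 normalized counts in NT and 7.55, 14.0 and 9.33 at 24 h (log2 fold change -3.87). That 126 kb upstream of Mycn, a MYC family transcription factor gene, held 52.2 and 82.2 in NT and 3.35, 4.68 and 6.66 at 24 h (log2 fold change -3.8, edgeR adjusted p = 3.84e-06). Both fell in all 3 treated libraries. A peak 25 kb downstream of the Myc start (chr15:62012293-62013085) was the most even of the named losses, with 281 and 257 normalized counts in NT and 31.0, 32.7 and 33.3 at 24 h. Its log2 fold change was -3.06 (standard error 0.26, edgeR adjusted p = 5.84e-10) and -3.07 without treated replicate 2. Myc encodes a transcription factor of growth, and its peak had already reached a log2 fold change of -2.94 at 2 h. The peak nearest to Crygs, a lens crystallin gene, went from 217 and 235 to 31.0, 28.1 and 17.3 (log2 fold change -3.14). Over the 15 largest losses, which were chosen by size, log2 fold changes ran from -4.85 to -3.73, 8 peaks were intronic and 7 intergenic, and 7 held CCATTA in their window.

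Gains were fewer and smaller. The Inpp5d peak lies in an intron of that gene, which encodes the lipid phosphatase SHIP1. It held 17.4 and 1.71 normalized counts in NT and 55.3, 79.5 and 56.0 at 24 h. The treated libraries were above both NT libraries, which themselves differed. The log2 fold change of 2.55 (standard error 0.45, edgeR adjusted p = 0.000329) depended on which NT library was used: it was 5.02 without NT replicate 1 and 1.76 without NT replicate 2. The intergenic peak 628 kb from Brinp3 went from 10.1 and 10.3 to 63.7, 79.5 and 44.0 (log2 fold change 2.52, edgeR adjusted p = 0.00299), and was no longer called without NT replicate 1 (adjusted p = 0.0888). The gain with the lowest adjusted p lay 364 kb upstream of Abra, which encodes an actin-binding protein of muscle (chr15:42233099-42234280). Its levels of 23.2 and 25.7 in NT and 125, 70.1 and 97.3 at 24 h give a log2 fold change of 2.08 (standard error 0.32, edgeR adjusted p = 5.13e-05) and 2.19 without treated replicate 2. Replicate 2 was the lowest of the treated libraries there and still above both NT libraries.

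The next gains by adjusted p lay near Pnp2, Unc5d, Mta3 and Tpm3-rs7. The peak near Pnp2, a purine nucleoside phosphorylase gene, rose from 37.7 and 56.5 to 127, 145 and 160 (log2 fold change 1.62, edgeR adjusted p = 0.000123). In Unc5d, a netrin receptor gene, an intronic peak rose from 31.9 and 44.5 to 99.8, 108 and 139 (log2 fold change 1.61). Mta3, which encodes a subunit of the NuRD remodelling complex, held a peak that rose from 69.6 and 51.4 to 163, 154 and 229 (log2 fold change 1.6). Mta3 was among the 5 genes nearest to 3 gained peaks, the highest number for any gene, with Dpp10, Eif4g2, Pik3c3 and Slc35c1. Its 3 gained peaks lay between 15 and 28 kb from its start, and all 3 remained called without treated replicate 2. The peak nearest to Tpm3-rs7, at a distance of 724578 bp, rose from 40.6 and 46.3 to 138, 108 and 105 (log2 fold change 1.46). At these 4 sites every treated library was above both NT libraries. The peak upstream of Pan3, a deadenylase subunit gene, held 26.1 and 5.14 in NT and 61.2, 60.8 and 75.9 at 24 h. Its log2 fold change of 2.02 became 3.66 without NT replicate 1 and 1.34, no longer called, without NT replicate 2 (adjusted p = 0.238).

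Around Nanog itself most of the log2 fold changes were above 0. Of 16 tested peaks nearest to the gene and within 50 kb, 15 had a log2 fold change above 0, with a median of 0.71. Over all peaks tested, 52.5% had one above 0. In 2 of the 16 the rise passed the test (0.288% of all peaks tested were gained), and 7 were higher at an unadjusted p under 0.05, as were 4.14% of all peaks. By edgeR's quasi-likelihood test, by DESeq2 and at that unadjusted p, 0 were lower. The peak 8.4 kb downstream of the start (chr6:122715040-122716455) held 42.0 and 29.1 normalized counts in NT and 112, 220 and 97.3 at 24 h. All treated libraries were above both NT libraries, and replicate 2 was the highest. The log2 fold change was 1.84 (standard error 0.41, edgeR adjusted p = 0.00577), and 1.54 with an adjusted p of 0.0269 without treated replicate 2. The peak 17 kb upstream (chr6:122689279-122690587) rose from 26.1 and 34.3 to 85.5, 46.8 and 79.9 (log2 fold change 1.35, edgeR adjusted p = 0.0101; 1.46 without replicate 2). The call of the downstream peak was lost without either NT library (adjusted p = 0.0559 without NT replicate 1 and 0.115 without NT replicate 2), and that of the upstream peak without treated replicate 1 or NT replicate 1 (adjusted p = 0.0908 and 0.241). At the Nanog start the levels were 239 and 195 in NT and 227, 374 and 268 at 24 h, which overlap, with a log2 fold change of 0.36 that did not pass the test. In the other lines, 10 of the same 16 peaks had a log2 fold change below 0 after 24 h of SOX2 depletion and 16 after OCT4 depletion. Over all peaks tested the medians there were 0.06 and -0.01, and the shares below 0 in those lines were not counted.

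The gene nearest to the most lost peaks, by this count, was Gadd45g, a growth arrest and stress response gene, with 11 of 44 tested peaks, level with Tenm4, a teneurin gene, with 11 of 136. Tle3, a Groucho family co-repressor gene, followed with 10 of 94. Around Gadd45g lower values were found across the region: 41 of the 44 peaks had a log2 fold change below 0, with a median of -0.82, while 47.5% of all peaks tested were below 0 and 2.25% were lost. The gene was picked by its number of losses in these same values, so that comparison describes the region and does not test it. The 11 lost peaks ran from 7 to 292 kb downstream of the start, with log2 fold changes from -2.66 to -1.22. The strongest lay 12 kb downstream (chr13:51858487-51859632), with 47.8 and 48.0 normalized counts in NT and 5.03, 4.68 and 12.0 at 24 h (log2 fold change -2.66, edgeR adjusted p = 7.62e-05). A second one 65 kb downstream had more counts, with 129 and 94.2 in NT and 47.8, 60.8 and 42.6 at 24 h (log2 fold change -1.22, edgeR adjusted p = 0.00509). Treated and NT libraries did not overlap at any of the 11, which were called on these same libraries, and 10 remained called without treated replicate 2. After OCT4 depletion 35 of the 44 peaks had a log2 fold change above 0, and 6 of the 11 peaks lost here rose while 2 fell. Over all peaks tested the median after OCT4 depletion was -0.01, with 10.8% called higher and 12.7% called lower. After SOX2 depletion 15 of the 44 peaks had a log2 fold change below 0. Of the 11 lost peaks 1 was called lower there and 1 higher, against 10.9% and 4.87% of all peaks tested. Gadd45g stands first because coding genes alone were used. When peaks were given to the nearest gene of any kind, including non-coding genes, Gadd45g was nearest to 4 lost peaks, Tenm4 to 7 and Tle3 to 2.

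**Figure D2:**
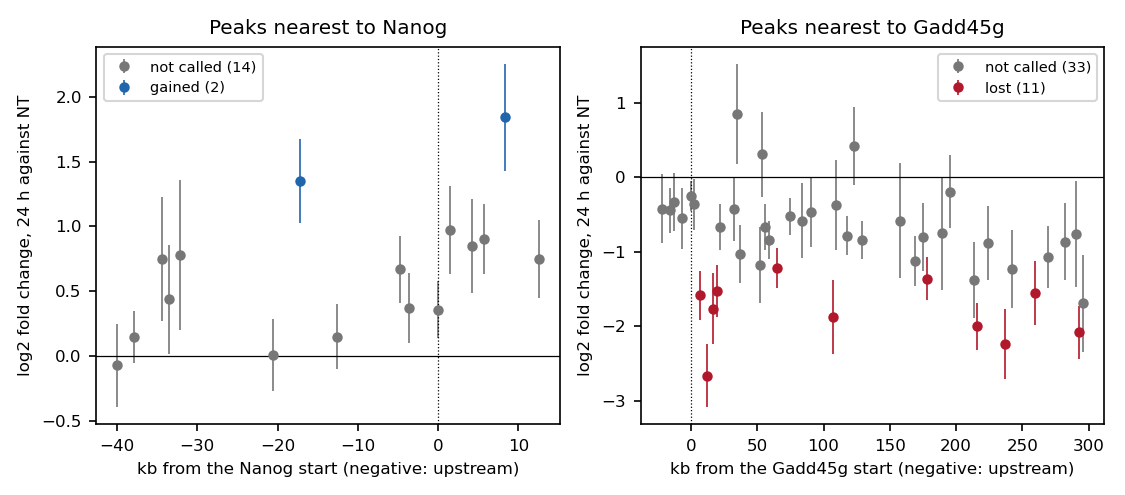
Log2 fold change at 24 h against NT, with bars for the standard error, of each tested peak nearest to Nanog (16 peaks, left) and to Gadd45g (44 peaks, right), plotted against its distance in kb from the gene start. At Nanog 15 points lie above 0 and 2 were gained (blue), and at Gadd45g 41 points lie below 0 and 11 were lost (red).

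Of 160 genes in 12 lists of cell states, pathways and ribosomal proteins, 159 had a tested peak nearest to them within 100 kb, 2336 peaks in all. Of these peaks 72 were lost (3.08%, against 2.25% of all peaks tested) and 5 were gained (0.214%, against 0.288%). The start peak was tested for 134 genes and called for 0 of them by edgeR's quasi-likelihood test and for 1 by DESeq2, with 4 lower and 3 higher at an unadjusted p under 0.05 and log2 fold changes from -1.20 at Hnf4a to 1.51 at Dppa3, both at starts with few counts. The changes described next are therefore all at peaks away from these starts.

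Naive pluripotency factors had peaks called in both directions. Of 500 peaks, 10 were lost (2.0%, against 2.25% of all peaks tested), at 8 genes, and 3 were gained (0.6%, against 0.288%). The share lost was thus near that of all peaks, and the peaks below are single sites. Klf5, a Krüppel-like factor of the naive network, had the strongest loss, 23 kb upstream: 181 and 154 normalized counts in NT became 17.6, 23.4 and 17.3 (log2 fold change -3.19, edgeR adjusted p = 3.36e-06). A peak 50 kb from Tbx3, a T-box factor gene, held 259 and 219 in NT and 72.1, 32.7 and 44.0 at 24 h (log2 fold change -2.12). Within Tet2, which encodes a 5-methylcytosine dioxygenase, an intronic peak went from 568 and 543 to 174, 145 and 145 (log2 fold change -1.83, edgeR adjusted p = 2.09e-06). At all 3 genes every treated library lay below both NT libraries. The genes of the partner factors each had 1 called peak: 15 kb upstream of Pou5f1, which encodes OCT4, the level fell from 299 and 248 to 93.1, 93.5 and 131 (log2 fold change -1.35, edgeR adjusted p = 6.31e-05). The peak 95 kb downstream of Sox2 fell from 323 and 233 to 138, 108 and 164 (log2 fold change -0.98, edgeR adjusted p = 0.00558), a call lost without NT replicate 1 (adjusted p = 0.276). Losses near Klf4 (-1.74), Esrrb (-1.22) and Tfcp2l1 (-1.18), further factors of the naive state, were weaker. Each of these 3 lost its call without treated replicate 1, treated replicate 3 or NT replicate 1, and the log2 fold change near Klf4 fell to -0.8 without NT replicate 1.

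Formative and primed epiblast genes had 11 of 180 peaks lost (6.11%, against 2.25% of all peaks tested), at 9 genes, and none gained. Without treated replicate 2, 8 were lost. Foxd3, a forkhead factor gene, had a peak 20 kb upstream that went from 517 and 463 normalized counts to 154, 122 and 165 (log2 fold change -1.7, edgeR adjusted p = 7.44e-05). Near Otx2, a homeobox gene of the primed epiblast, a peak went from 98.6 and 108 to 25.2, 23.4 and 44.0 (log2 fold change -1.69). In both the treated libraries lay far below NT. The peak in Fgf5, a growth factor gene that marks the epiblast, went from 142 and 212 to 64.6, 122 and 60.0 (log2 fold change -1.27), with replicate 2 closest to NT, and -1.5 without it. Its call was lost without treated replicate 1, treated replicate 3 or NT replicate 2. A peak 12 kb upstream of Pou3f1, a POU factor gene, fell from 75.4 and 48.0 to 26.0, 32.7 and 16.0 (log2 fold change -1.42), a call lost without treated replicate 1, treated replicate 3 or NT replicate 1 (adjusted p = 0.0718, 0.21 and 0.451).

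Primitive endoderm genes showed no common direction. Of 198 peaks, 4 were lost (2.02%, against 2.25% of all peaks tested) and 1 was gained (0.505%, against 0.288%). The gain lay 74 kb upstream of Gata6, the endoderm factor gene: 24.6 and 20.6 normalized counts in NT became 80.5, 42.1 and 61.3 (log2 fold change 1.54, edgeR adjusted p = 0.00521; 1.65 without treated replicate 2). Treated libraries were higher in all 3 cases. The call was lost without treated replicate 1, NT replicate 1 or NT replicate 2. In Pdgfra, a receptor gene that marks this lineage, an intronic peak instead fell from 125 and 110 to 47.0, 18.7 and 29.3 (log2 fold change -1.69, edgeR adjusted p = 0.00501), a call lost without treated replicate 3 or NT replicate 1 (adjusted p = 0.0563 and 0.0919). Near Foxa2 a peak fell from 101 and 101 to 31.0, 23.4 and 45.3 (log2 fold change -1.52).

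Of the 512 peaks in 4 lists of other lineages, 20 were lost (3.91%, against 2.25% of all peaks tested) and 0 were gained. Gains were 0.288% of all peaks tested, so that few would be found in a list of this size. Together, the 9 lists without a gain held 1388 peaks, of which DESeq2 called 0 gained, with 36 higher and 141 lower at an unadjusted p under 0.05 in edgeR's test. Trophectoderm genes had 8 of 216 peaks lost (3.7%), primitive streak and mesoderm genes 3 of 107 (2.8%), neural ectoderm genes 4 of 102 (3.92%) and germ cell genes 5 of 87 (5.75%). A peak 61 kb from Ets2, an ETS factor gene of trophoblast, went from 625 and 478 normalized counts to 162, 159 and 149 (log2 fold change -1.82, edgeR adjusted p = 5.61e-06). Near Eomes, a T-box factor gene, the level fell from 129 and 159 to 51.1, 93.5 and 58.6 (log2 fold change -1.23), a call lost without treated replicate 1, treated replicate 3 or NT replicate 2 (adjusted p = 0.102, 0.059 and 0.0992). Prdm1, which encodes BLIMP1, a factor of germ cell specification, had 3 lost peaks. The one with the lowest p fell from 387 and 341 to 86.4, 84.2 and 111 (log2 fold change -1.94, edgeR adjusted p = 2.51e-07). A peak upstream of Kit, the stem cell factor receptor gene, fell from 37.7 and 30.8 to 5.03, 4.68 and 5.33 (log2 fold change -2.72). In Pax6, a gene of eye and neural development, the peak lay only 614 bp from a start and fell from 136 and 187 to 66.2, 60.8 and 52.0 (log2 fold change -1.42). The peak 22 kb from Mesp1, a mesoderm factor gene, lies in an intron of Wdr93 and fell from 277 and 254 to 72.9, 98.2 and 83.9 (log2 fold change -1.7).

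Among the signalling lists, FGF and ERK pathway genes had 11 of 250 peaks lost (4.4%) and 1 gained, LIF and STAT3 pathway genes 5 of 154 lost (3.25%), WNT pathway genes 6 of 252 (2.38%) and NODAL and BMP pathway genes 4 of 181 (2.21%). Ribosomal protein genes, taken as housekeeping genes, had 1 of 109 (0.917%). Over all peaks tested 2.25% were lost, which the WNT share and the NODAL and BMP share lie near, and 0.288% were gained. Spry4 and Spred1, which encode inhibitors of the ERK pathway, had losses of -1.68 and -2.11 in log2 fold change, and that near Spry4 was not called without NT replicate 1 (adjusted p = 0.0546). The Spred1 peak fell from 95.7 and 68.5 to 22.6, 14.0 and 16.0 normalized counts. Socs3, the feedback inhibitor of LIF signalling, had a peak that fell from 63.8 and 37.7 to 10.9, 9.35 and 6.66 (log2 fold change -2.46), a call lost without NT replicate 1 (adjusted p = 0.0833). Upstream of Lifr, the LIF receptor gene, a peak fell from 344 and 238 to 95.6, 98.2 and 128 (log2 fold change -1.43, edgeR adjusted p = 7.72e-05). Of the WNT genes, Ctnnb1, which encodes beta-catenin, had the strongest loss, from 100 and 75.4 to 18.4, 23.4 and 10.7 (log2 fold change -2.43, edgeR adjusted p = 3.75e-05), at a site that lies in an intron of Ulk4. Axin2, the feedback target of the pathway, had a loss of -1.63.

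**Figure D3:**
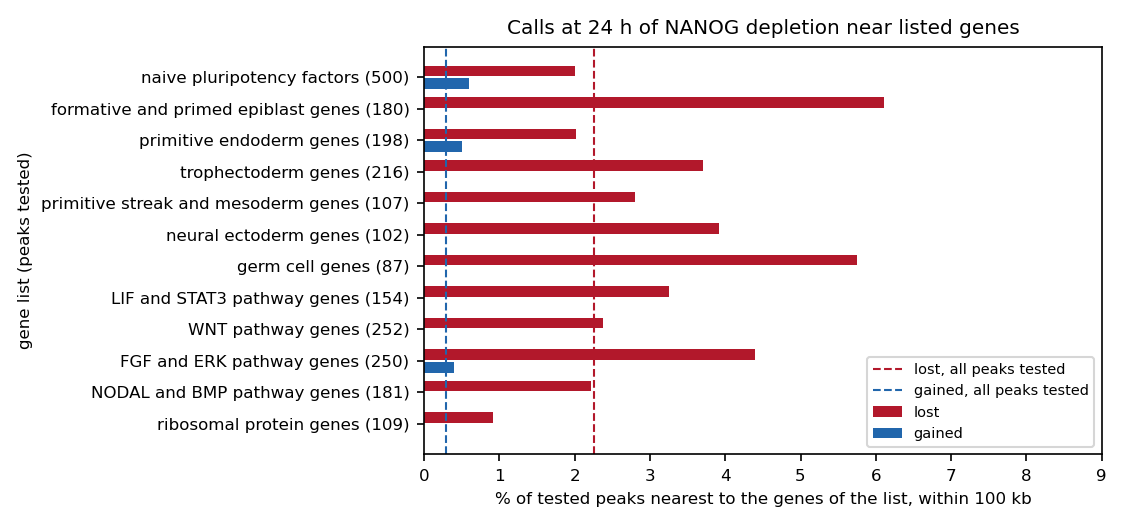
Percent of tested peaks lost (red) and gained (blue) at 24 h for the peaks nearest to the genes of each list within 100 kb, with the number of peaks tested in brackets and dashed lines at the shares over all peaks tested (2.25% lost and 0.288% gained). The share lost runs from 0.917% at ribosomal protein genes to 6.11% at formative and primed epiblast genes, and 9 of the lists have no gained peak.

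Lost and gained peaks also differed in the letters of their sequence, which the calls did not use. The motifs were searched on both strands in the 200 bp around the summit. CCATTA was in 15.2% of lost peaks, in 5.22% of gained peaks and in 5.99% of all peaks tested. The SOX core was searched as CATTGTT and, with a change of its second letter, as CTTTGTT, and was in 17.7%, 14.8% and 8.63%, the POU octamer (ATGCAAAT, ATGTAAAT or ATGCTAAT) in 10.1%, 3.55% and 4.44%, and the core of TCF factors, the effectors of WNT signalling, in 18.5%, 7.93% and 8.18%. The TCF core was searched as CTTTGAT and, with a change of its last letter, as CTTTGAA. In this window SOX was more common in gained peaks than in all and the other 3 cores were not. Over the whole peak the POU octamer (14.0% of gained against 11.7% of all) and TCF (31.3% against 25.9%) were more common in gained peaks too, and these differences were not tested. Gained peaks were also wider than all, with a median of 818 against 694 bp. Matches of different motifs may overlap, and the composite SOX-POU element spans parts of both cores. It was rare, in 0.908% of lost peaks, 0.0% of gained peaks and 0.295% of all. For some other families the shares in lost and in all peaks were close. The motif of GATA factors (AGATAAG) was in 1.92% against 1.7% of all and that of ESRRB (CAAGGTCA) in 4.75% against 4.31%. The motif of CTCF, the insulator protein, went the other way, with 1.17% of lost and 2.09% of gained peaks against 9.07% of all. The TFAP2 palindrome (GCCNNNGGC) was in 17.1% of gained, 4.7% of lost and 8.83% of all peaks.

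The shares refer to motif matches, and lost peaks differ from all peaks in place, GC content (a median of 48.5% against 52.0%), width (a median of 850 against 694 bp) and level. Among peaks over 500 bp from a start the CCATTA shares were 15.3% of lost, 4.98% of gained and 6.39% of all, and 6.4% of those with at least 50 normalized counts in NT. For SOX, POU, TCF and the composite the share rose with level. In those with at least 50 counts it was 11.4% for SOX, 6.03% for POU, 10.0% for TCF and 0.689% for the composite. In distal lost peaks these shares were 17.9%, 10.2%, 18.6% and 0.943%. In the peaks called without treated replicate 2, CCATTA was in 15.5% of lost and 5.79% of gained peaks, SOX in 17.8% and 12.7%, TCF in 19.1% and 8.56%, and the TFAP2 palindrome in 4.5% and 19.7%. Read the other way, 6.04% of the 9123 distal peaks with CCATTA were lost, against 2.28% of those without. With none of the 4 cores (SOX, POU, CCATTA and TCF) 1.7% of distal peaks were lost, with 1 kind 4.39%, with 2 kinds 7.91% and with 3 kinds 12.6% (44 of 349). Of the 8 peaks with all 4 kinds, 0 were lost. Within the lost peaks, those with CCATTA had a median log2 fold change of -1.75 and those with a POU octamer -1.52, beside -1.57 for all lost peaks.

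**Figure D4:**
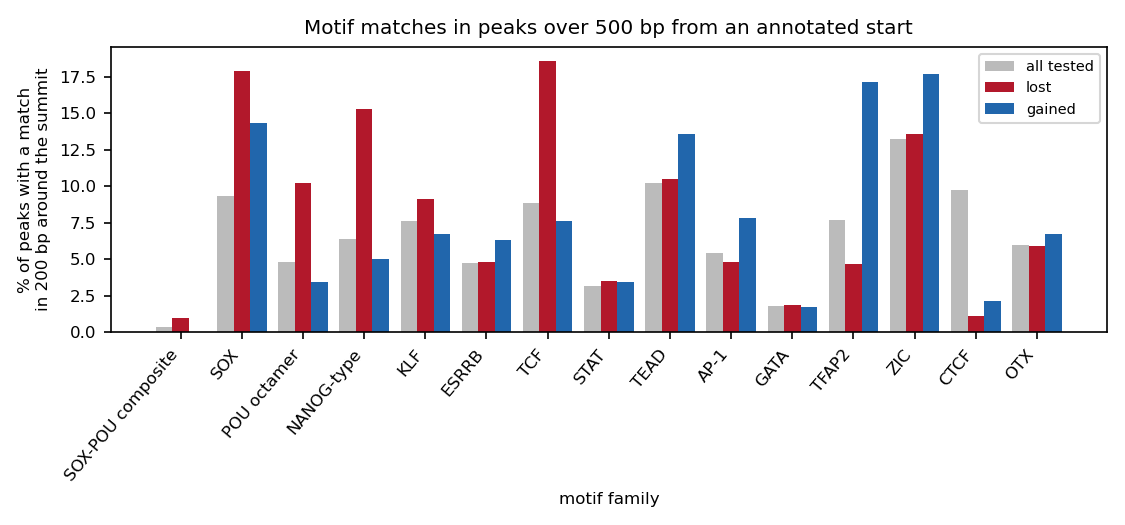
Percent of peaks over 500 bp from an annotated start that hold a match to each motif in the 200 bp around the summit, for all peaks tested (grey), lost peaks (red) and gained peaks (blue). The red bars stand above the grey ones for SOX, POU octamer, NANOG-type and TCF and far below for CTCF, and the blue bar stands highest over grey for TFAP2.

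Most of the loss at these peaks was present before 24 h. The lost peaks had a median log2 fold change of -1.11 at 2 h, -1.18 at 6 h and -1.57 at 24 h, and the gained peaks one of 0.58, 0.78 and 1.39. The 3 times share the NT libraries, so these medians are not independent of each other, and the peaks were chosen at 24 h. At 2 h 1339 of the lost peaks were already called lower, and 1604 at 6 h, while 9 and 24 of the gained peaks were called higher. Over all peaks tested 1561 were lower at 2 h (0.938%) and 1797 at 6 h (1.08%), and 27 (0.0162%) and 61 (0.0367%) were higher. In the peaks called without treated replicate 2 at 24 h the medians were -1.11 and -1.19 for lost peaks at 2 and 6 h, and 0.57 and 0.77 for gained peaks. These medians still include replicate 2 at 2 h and at 6 h. Those libraries were shallow as well, with 1817191 and 3272168 counts, and 17.6% and 13.2% of their counts were mitochondrial. Comparing 24 h with 2 h directly leaves the NT libraries out. Over all peaks, 135 were lower at 24 h than at 2 h (0.0811% of those tested) and 36 were higher (0.0216%). With the replicate number as a block, which pairs the treated libraries, 1329 were lower (0.799%) and 981 higher (0.589%), so the lower share of the calls went from 78.9% to 57.5%. Of the lost peaks 77 were lower at 24 h than at 2 h (453 with the block) and 0 higher. Of the gained peaks 19 were higher (193 with the block). The counts without the block rest on few libraries: without treated replicate 3 at 24 h 1 peak was lower and 0 were higher, and without treated replicate 1 at 24 h 7 and 2.

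At several named sites 24 h differed from 2 h, and 4 of them are described here. The Unc5d gain was another, with 1.11 between 2 and 24 h (edgeR adjusted p = 0.0384), and was not followed across settings. The peak near Nodal, which encodes a TGF-beta family ligand, had a mean of 208 normalized counts at 2 h and 149 at 6 h, and levels of 158 and 128 in NT and 70.4, 70.1 and 79.9 at 24 h. It was lower at 24 h than at 2 h by a log2 fold change of -1.44 (edgeR adjusted p = 0.00494) and lower than in NT by -0.96 (edgeR adjusted p = 0.0207), the latter call being lost without treated replicate 1, treated replicate 3 or NT replicate 1 (adjusted p = 0.11, 0.0597 and 0.297). The Ctnnb1 peak had a mean of 59.8 at 2 h and 59.3 at 6 h, already below both of its NT levels. It fell further by -1.9 between 2 and 24 h (edgeR adjusted p = 0.021). Prdm1 had an intermediate mean of 194 at 2 h (-1.05 between 2 and 24 h, edgeR adjusted p = 0.0288). The Abra gain had a mean of 30.4 at 2 h and 47.5 at 6 h (1.74 between 2 and 24 h, edgeR adjusted p = 0.00494). None of these 4 calls between 24 and 2 h was kept without treated replicate 3 at 24 h (adjusted p = 0.0682, 0.249, 0.139 and 0.0566 for Nodal, Ctnnb1, Prdm1 and Abra) or without replicate 1 at 24 h (0.0704, 0.137, 0.247 and 0.0965). That of Prdm1 was lost without any 1 of the 6 libraries, and that of Ctnnb1 also without 2 h replicate 1 or 2. With the replicate block, which pairs these libraries, all 4 were called (adjusted p from 1.29e-06 to 5.71e-05). The Itpka, Tet2 and Myc peaks were already low at 2 h, with log2 fold changes of 0.04, 0.03 and -0.12 from 2 to 24 h, none of which passed the test.

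**Figure D5:**
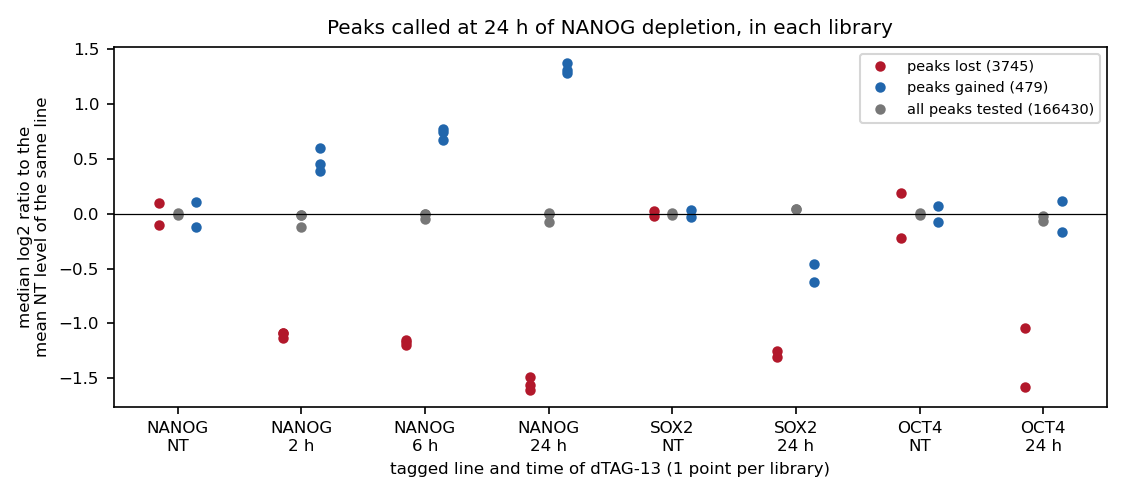
Median log2 ratio to the mean NT level of the same line, 1 point per library, over the 3745 peaks lost (red), the 479 gained (blue) and all 166430 tested (grey) at 24 h of NANOG depletion. The red points go from between -1.13 and -1.09 at 2 h to between -1.61 and -1.49 at 24 h, and lie between -1.58 and -1.04 in the SOX2 and OCT4 lines, while the blue points rise to between 1.28 and 1.37 at 24 h in NANOG-FKBP and lie between -0.62 and 0.12 at 24 h in the other lines.

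The same peaks were followed in the SOX2-FKBP and OCT4-FKBP lines at 24 h, each with 2 treated and 2 NT libraries of its own. SOX2 depletion lowered 18076 of all peaks tested (10.9%) and raised 8100 (4.87%), and OCT4 depletion lowered 21078 (12.7%) and raised 18027 (10.8%). Of the peaks lost after NANOG depletion, 2230 (59.5%) were lost after SOX2 depletion, which is 12.3% of the SOX2 losses, and 2211 (59.0%) after OCT4 depletion, 10.5% of the OCT4 losses. Both lines lost 1642 of them, and 866 (23.1%) were called in neither. The shares of all peaks tested that were lost in both lines or called in neither were not counted, so these counts only describe the lost peaks. The median log2 fold change of the NANOG losses was -1.31 in each of the other lines. Of the 479 gained peaks, 166 (34.7%) were lost after SOX2 depletion and 19 (3.97%) were gained, with a median of -0.57. After OCT4 depletion 93 (19.4%) were lost and 86 (17.95%, against 10.8% of all peaks tested) were gained, with a median of 0.02 that changed sign with the peaks called, being -0.43 without treated replicate 1 and 0.34 without treated replicate 2. In the peaks called without treated replicate 2, 62.6% of the lost peaks were lost after SOX2 depletion and 62.5% after OCT4 depletion, while 4.63% and 25.0% of the gained peaks were gained.

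The difference between the NANOG and SOX2 changes, which come from separately edited lines, was tested directly. Over all peaks, 1987 had a more negative change after NANOG depletion (1.19%) and 9298 a more positive one (5.59%). Among the lost peaks 376 (10.0%) were more negative and 259 (6.92%) more positive, so that most were not told apart from the SOX2 change. Among the gained peaks 316 (66.0%) were more positive and 0 more negative. These peaks were chosen by their change in the NANOG line, which enters the difference, so the shares describe them. The Dmrta2 peak was the clearest named loss that SOX2 depletion did not share. It lies 148 kb downstream of Dmrta2, a gene of the developing forebrain (chr4:110125103-110126185), and holds CCATTA. NT levels were 66.7 and 103 and 24 h levels 5.87, 4.68 and 4.0, a log2 fold change of -4.01 (edgeR adjusted p = 6.91e-07). After SOX2 and OCT4 depletion it was -0.42 and -0.51, neither past the test, and the difference from SOX2 was -3.59 (standard error 0.59, edgeR adjusted p = 3.54e-05). Prdm1 (-1.94 against -0.07), Axin2 (-1.63 against 0.79) and Pdgfra (-1.69 against 0.7) also differed from their SOX2 change, as did the gains near Abra (2.08 against -2.05) and Pnp2 (1.62 against -2.52). The Prdm1 peak was lost after OCT4 depletion (-1.53, edgeR adjusted p = 9.82e-06). At the Myc peak the SOX2 and OCT4 changes were -3.96 and -4.38. The Gata6 gain was also present after OCT4 depletion, with 3.39 (edgeR adjusted p = 5.21e-10), and its change after SOX2 depletion was 0.35.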

How the data were processed

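Per the labels and the study's methods, the authors aligned paired-end ATACseq reads to mm10 with BWA 0.7.17-r1188, filtered them at a mapping quality of 10 (SAMtools 1.10), dropped duplicates with Picard 2.12.0, called 1 set of peaks with MACS2 after merging the libraries, and took the fragment count of each library over every peak. The deposited values are raw counts for 184964 peaks. No shift of fragment ends is given in the sources used here. Of 45 samples, 31 had a column of counts, and the other 14 were not analysed here. Of the deposited peak list, positions and summits were used, and the authors' ratio of enrichment and −log10 values were not used.

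The test was edgeR's quasi-likelihood F test (edgeR 4.0.16 under R 4.3.3) after TMM scaling, with Benjamini-Hochberg adjustment over 166430 peaks that had more than 10 counts in more than 6 of 27 libraries. These were NT, 2, 6 and 24 h of the 3 lines, which share 1 estimate of the spread. The standard error is approximated as the fold change divided by the square root of F. DESeq2 1.42.0 was an alternative. A peak was given to the protein-coding gene of GENCODE vM21 with the nearest transcript start. Motifs were fixed letter patterns. Total counts per library were between 1817191 and 17575631. Leaving out 1 replicate of a pair assumes that the lone library varies like the other groups.

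Named peaks were the 15 largest losses and 10 largest gains with at least 50 normalized counts in the higher group, no overlap between groups and a call without treated replicate 2, the 5 lost and 5 gained with the lowest p, the called and start peaks of listed genes, and the genes nearest to the most changed peaks. The text prints those it needs. Members and lists were chosen with earlier results of these data known. Treated libraries at 24 h and 2 h with the same replicate number deviated together (correlations of 0.22, 0.13 and 0.11), so the numbers were taken to pair them. Replicate 2 had a high mitochondrial share at both times (17.6% at 2 h and 17.0% at 24 h), whose part in the 0.13 was not tested. For NT and 24 h libraries the correlations were 0.10 and -0.01. The first is close to the 0.11 above, so these values do not settle whether NT and treated libraries are paired. Alternatives were other scalings, count filters, subsets of libraries, a replicate block and leaving out each replicate.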

Additional observations from a re-analysis of the deposited data

Results flagged for a closer look

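The change at 24 h differed between the NANOG-FKBP and SOX2-FKBP lines, by a test of the difference itself (edgeR's quasi-likelihood test, Benjamini-Hochberg adjustment), at 1987 peaks with a more negative and 9298 with a more positive change after NANOG depletion. Of the 54 called peaks followed, 22 differed, 11 in each direction. The values below are differences in log2 fold change, NANOG minus SOX2, and each named peak had been chosen on its NANOG change, which enters the difference.

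More negative after NANOG depletion were the peaks near Dmrta2 (-3.59, adjusted p = 3.54e-05), Mycn (-2.73), Il7 (-2.72, a cytokine gene), Axin2 (-2.42, adjusted p = 0.000143), Pdgfra (-2.4), Rpl11 (-1.96), Bach2 (-1.91), Prdm1 (-1.87, adjusted p = 4.99e-05), Socs3 (-1.87), Esrrb (-1.42, adjusted p = 0.0473) and Mesp1 (-1.24). At Bach2, Il7 and Mycn the SOX2 change was itself negative (-2.82, -1.16 and -1.06), which passed the test at Bach2 and Il7 and not at Mycn (adjusted p = 0.171). At Axin2, Pdgfra, Esrrb and Rpl11, a ribosomal protein gene, the SOX2 change was 0.79, 0.7, 0.2 and 0.17, with none of these past the test.

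More positive were the gains near Brinp3 (4.42), Abra (4.13, adjusted p = 3.38e-07), Pnp2 (4.13, adjusted p = 1.28e-07), Tpm3-rs7 (3.89, adjusted p = 6.95e-08), Osbpl3 (3.7, an oxysterol-binding protein gene), Inpp5d (3.0), Ppp1cb (2.22, a phosphatase subunit gene), Unc5d (2.2) and Mta3 (1.93), and both gained peaks near Nanog (2.46 for the downstream and 2.13 for the upstream peak). At Abra, Pnp2, Tpm3-rs7 and Osbpl3 the SOX2 change passed the test in the other direction (-2.05, -2.52, -2.43 and -1.6). The SOX2-FKBP libraries had 2.43% to 3.09% of their counts on the mitochondrial genome, against 17.0% in treated NANOG-FKBP replicate 2. Without that library 1665 peaks had a more negative and 8747 a more positive change.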

How the results depend on the processing

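The lost peaks numbered 2882 (DESeq2) to 3889 under other tests, scalings, subsets of libraries and the absence of a count filter. With at least 10 counts in every library, which leaves 33328 peaks, there were 668 lost and 77 gained. Gained peaks were more dependent on the setting, with 231 by DESeq2, 256 with total counts, 258 with the 11 NANOG-FKBP libraries alone and 266 with the 5 libraries of the comparison alone. Leaving out 1 library gave 1461 to 3536 lost and 156 to 432 gained: 2268 and 218 without treated replicate 1, 2056 and 242 without treated replicate 3, 1461 and 222 without NT replicate 1, and 3181 and 156 without NT replicate 2. Under every such omission 968 lost and 23 gained peaks remained called. With a replicate block, for which NT and treated libraries share only a number, 6097 were lost and 1949 gained, and 6419 and 1746 with GC content offsets as well, so losses were 75.8% and 78.6% of the calls in place of 88.7%. The cause was not tested.

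Between 24 h and 2 h, 242 peaks were lower by DESeq2 and 70 with only the libraries compared. Higher were 14 with total counts, 12 with at least 10 counts in every library and 11 with only the libraries compared. The replicate block gave 1329 and 981, and leaving out 1 library 1 to 137 and 0 to 42 (34 and 14 without 2 h replicate 1, 35 and 4 without 2 h replicate 2, 13 higher without 2 h replicate 3). Differences from SOX2 were 515 more negative and 3494 more positive with at least 10 counts in every library, 5567 and 13607 with the block, and 732 to 1665 and 6686 to 8875 without 1 library (more negative: 818 without NANOG-FKBP NT replicate 1, 732 without SOX2-FKBP 24 h replicate 1, 1010 and 845 without SOX2-FKBP NT replicates 1 and 2). The median SOX2 change at lost peaks ran from -1.52 to -1.23 and at gained peaks from -0.68 to -0.43, and the median OCT4 change at gained peaks from -0.43, without treated replicate 1, to 0.34.

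Of 54 named peaks, 34 were called under every setting that could be run and 0 reversed. Not called were 16 without NT replicate 1, 11 without treated replicate 1, 9 without treated replicate 3, 9 without NT replicate 2, 3 by DESeq2 and 0 without treated replicate 2. A call without treated replicate 2 was a condition for the peaks named by size or p. The block changed no call of these 54 peaks. All 30 motif shares moved when the whole peak was searched. Searched so, CCATTA was in 40.5% of lost, 22.1% of gained and 22.2% of all peaks. Among distal peaks with at least 50 normalized counts in NT it was in 32.4%. Lost peaks were also wider than all, with a median of 850 against 694 bp. Among the 5 libraries of the comparison, depth limits single sites most in treated replicate 2, where 92.7% of the peaks had a count. Replicate 2 was also the shallowest library at 2 h and at 6 h, where 88.3% and 95.8% of the peaks had a count.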

Other observations

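Gained peaks lay in repeats more often than lost peaks. Over 90% of the 200 bp around the summit was repeat-masked in the reference at 51 gained peaks (10.6%), at 60 lost peaks (1.6%) and at 4920 of all peaks tested (2.96%). The 51 had a median log2 fold change of 1.29, beside 0.13 for all peaks of that kind, and all 3 treated libraries lay above both NT libraries at 49 of them. Without treated replicate 2, 42 remained called. Of the peaks gained at 24 h after SOX2 and OCT4 depletion, 0.358% and 0.771% were of that kind. An example is the second called peak near Tet2, 38 kb from its start and wholly masked, which went from 18.8 and 22.3 normalized counts to 53.7, 46.8 and 48.0 (log2 fold change 1.29, edgeR adjusted p = 0.0404), a call lost under 11 of 17 alternatives. Counts in repeats depend on how reads that match several places were handled, and alignments under a mapping quality of 10 had been removed. In peaks with less than 50% of the window masked, CCATTA was in 15.5% of lost, 4.11% of gained and 5.74% of all peaks, and the TFAP2 palindrome in 5.16%, 17.9% and 9.49%.

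Chromosome X held 15 gained peaks, 0.524% of its 2864 tested peaks, and 3.13% of all gained peaks, while it held 1.72% of the peaks tested. Its 63 lost peaks (2.2% of its peaks) were near the share over all chromosomes. The median log2 fold change of its peaks was 0.12, and the medians of the autosomes lay between 0.0 and 0.06. With 2 NT libraries and 1 line the part of chromosome copy number in this was not tested.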
